A study of Mus musculus with 45 samples.

Results

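The question was which genes of the mouse mammary tumour line Myc310 responded to the loss of cysteine and cystine more strongly, less strongly or in the other direction than they did in the line MYAZ16.1e. The comparison used 12 of the 45 libraries of the series, 3 in each of 4 groups: MYAZ16.1e in control medium, MYAZ16.1e deprived of cysteine and cystine, Myc310 in control medium and Myc310 deprived. Both lines were grown from mammary tumours of MMTV-cMYC mice, in which the promoter of the mouse mammary tumour virus drives c-Myc in the mammary epithelium, so controls and deprived cultures alike descend from Myc transgenic cells. Myc310 is the more metastatic line of the pair. Cells were seeded at 250000 per well, and after 24 h the medium was exchanged for control or deprived medium for 6 h. Each line stems from a tumour of 1 animal, so the line and the individual tumour cannot be told apart. The design text of the series calls the 3 cultures of a line technical replicates, so all p-values measure the spread between these cultures only, which may be technical.

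Messenger RNA was counted per gene, with 19517859 to 29019988 counts per library (median 22089205). Levels are given as CPM, a gene's counts scaled to the total of its library after the libraries were scaled to each other, and were not compared between genes of different length. A response is the log2 ratio of deprived over control within a line, and the response difference is the Myc310 response minus the MYAZ16.1e response, so that 1 stands for a 2-fold difference. It is written with the standard error of the fit (3 cultures per group). A difference or response was called at an adjusted p under 0.05 in edgeR's quasi-likelihood test over 13400 genes. Positions of genes are those of GENCODE on GRCm38, and a share of exon bases that another annotated gene overlaps is named where it passed 20%, because reads there may have been split. Both lines had high levels of the luminal keratin Krt8 (780.1 ± 10.9 CPM in MYAZ16.1e and 972 ± 9.38 CPM in Myc310 control cultures, SD, n = 3) together with the mesenchymal filament gene Vim (3899 ± 54.1 and 3188 ± 36.9 CPM). Of the 12 mesenchymal and fibroblast markers, 7 were higher in MYAZ16.1e controls without overlap, 3 were higher in those of Myc310 and 2 overlapped. Fibronectin Fn1 (374 ± 19.2 against 0.584 ± 0.0526 CPM) and N-cadherin Cdh2 (75.1 ± 2.15 against 0.0997 ± 0.0669 CPM) were near 0 in Myc310, whereas the transcription factors Zeb1 (39.2 ± 1.11 against 57.9 ± 1.18 CPM) and Twist1 (18.8 ± 1.22 against 80.7 ± 2.89 CPM) were higher there. The epithelial adhesion gene Epcam had 12 to 21 counts in the MYAZ16.1e control libraries and 0 in those of Myc310, so this defining epithelial marker was near or at 0. Of 14 mammary epithelium markers, 5 had at most 3 counts in every MYAZ16.1e control library, 4 of them 0. In the Myc310 controls 10 of the 14 had at most 3 counts in every library, 7 of them 0. Krt8 was thus not typical of that list. Summed over the 7 of 10 leukocyte markers in the table, the level was 5.66 to 6.88 CPM in the MYAZ16.1e cultures and 9.44 to 13.4 CPM in those of Myc310. Myc itself measured 401, 418 and 422 CPM in control and 434, 429 and 428 CPM in deprived MYAZ16.1e cultures, against 1341, 1316 and 1314 CPM and 1069.9, 1090.1 and 1022 CPM in Myc310. Myc fell in Myc310, by 0.32, while its MYAZ16.1e response of 0.06 was not called. The response difference was -0.38 ± 0.05 (adjusted p = 2.2e-07), and reads from the transgene and from the native gene were not separated.

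Cystine is taken up by the antiporter xCT, encoded by Slc7a11 and Slc3a2, and reduced in the cell to cysteine, which is built into proteins and into glutathione. A lack of an amino acid leaves transfer RNAs uncharged, which activates the kinase GCN2 (Eif2ak4), slows general translation through phosphorylated eIF2α and at the same time favours translation of the transcription factor ATF4. ATF4 and its partners then raise genes for amino acid uptake and synthesis and for tRNA charging, and a further layer of factors such as CHOP (Ddit3) and ATF3. This programme is called the integrated stress response (ISR). Loss of glutathione also exposes lipids to peroxidation and iron-dependent death, called ferroptosis, against which NRF2 target genes protect.

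The response was larger in Myc310. The median absolute response was 0.37 in Myc310 and 0.23 in MYAZ16.1e, and 1657 against 617 genes were called with a change of over 2-fold. In MYAZ16.1e 7195 of the 13400 genes were called (53.7%), 3560 rising (26.6%) and 3635 falling (27.1%). In Myc310 there were 8946 (66.8%), with 4401 rising (32.8%) and 4545 falling (33.9%). Across genes the responses of both lines, which share no library, had a Pearson r of 0.62 and a Spearman rho of 0.67, given as a description because genes are not independent replicates. Among 6096 genes called in both lines, 5773 moved in the same direction, and 4618 of those (80%) moved further in Myc310.

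The response difference was called for 5396 genes (40.3% of those tested), 2656 higher in Myc310 (19.8%) and 2740 lower (20.4%), with a median over all genes of -0.018. It passed 2-fold for 400 of them, 175 higher and 225 lower. Called genes were sorted by the direction of both responses. A rise was larger in Myc310 for 2093 genes (15.6% of those tested), and a fall was larger for 2254 (16.8%). Together these 4347 genes made up 80.6% of those called. A rise was smaller or missing in Myc310 for 336 genes (2.51%) and a fall for 343 (2.56%). Opposite directions, with both responses called, were found for 323 genes (2.41%), 203 of them rising in Myc310 while falling in MYAZ16.1e (1.51%) and 120 the reverse (0.896%). Another 47 called genes had neither response that would place them. Among the 9076 genes that averaged 3 or more on the log2 CPM scale, 4315 were not called or were unclassed. Calls were thus more frequent among these genes than the 40.3% of all genes. The shares of gene lists below are set beside 40.3% and were not matched for level, so a share somewhat above it does not set a list apart.

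**Figure D1:**
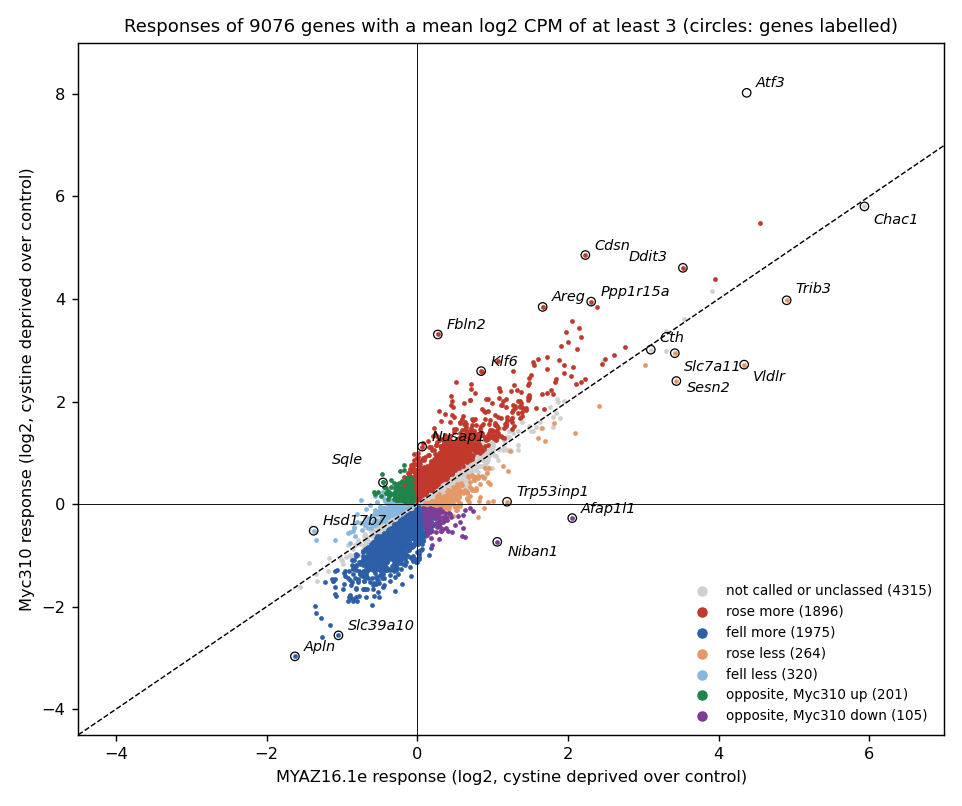
Each point is a gene, with its MYAZ16.1e response on the horizontal and its Myc310 response on the vertical axis (both log2, deprived over control), for the 9076 genes whose log2 CPM averaged 3 or more, coloured by class. The dashed line marks equal responses. Red (1896 genes that rose more) and blue (1975 that fell more) lie on the steeper side of it. Atf3, whose average was under 3, is shown by its circle alone.

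Among the transcription factors and regulators of the ISR, 10 of 15 were called (66.7%, beside 40.3% of all genes), 7 higher in Myc310 and 3 lower, and the median difference was 0.22. Atf3, a stress-induced repressor and activator of the CREB family (ENSMUSG00000026628, chr1:191170296-191218039, minus strand), had the largest difference of the list. It measured 1.47, 1.52 and 1.67 CPM in control and 34.2, 31.9 and 31.8 CPM in deprived MYAZ16.1e cultures. In Myc310 it measured 0.507, 0.393 and 0.510 CPM in control and 125, 126 and 121 CPM in deprived cultures. The Myc310 control was thus the lowest and its deprived group the highest of the 4, none of which overlapped, and the response difference was 3.65 ± 0.23 (adjusted p = 2.7e-13). Ppp1r15a, which encodes GADD34, the phosphatase subunit that reverses eIF2α phosphorylation, was at 21.7, 21.6 and 23.3 CPM in MYAZ16.1e controls and 106, 113 and 112 CPM after deprivation. Its Myc310 levels were 18.4, 17.4 and 19.3 CPM and 286, 281 and 283 CPM, a difference of 1.64 ± 0.07 (adjusted p = 2.4e-17). From control levels close to each other, the deprived Myc310 cultures ended above the deprived MYAZ16.1e cultures without overlap.

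The pro-death factor Ddit3 went from 3.00, 3.77 and 3.98 to 38.5, 44.6 and 42.6 CPM in MYAZ16.1e and from 2.03, 2.53 and 2.41 to 56.6, 59.6 and 53.5 CPM in Myc310, with a difference of 1.08 ± 0.14 (adjusted p = 3.6e-07). Atf5, another bZIP factor downstream of eIF2α, differed by 1.01 ± 0.04, and Cebpg, a dimer partner of ATF4, by 0.67 ± 0.05. Atf4 rose in both lines, by 1.65 in MYAZ16.1e and 2.16 in Myc310. Its difference of 0.50 ± 0.04 (adjusted p = 1.1e-11) was smaller than those of Atf3, Ppp1r15a and Ddit3, as plain values. Jdp2 was higher too, at 0.45 ± 0.06. Of the kinases that phosphorylate eIF2α, Eif2ak4 (GCN2) fell by 0.25 in MYAZ16.1e and by 0.53 in Myc310, and Eif2ak1 by 0.30 and 0.65, both called lower in Myc310. The call of Eif2ak4 was lost without Myc310 control replicate 1 (edgeR, adjusted p = 0.080). No difference was called for Eif2ak2 (-0.08 ± 0.08), Eif2ak3 (-0.13 ± 0.09), Nfe2l1 (-0.06 ± 0.03), Nupr1 (0.08 ± 0.08) or Cebpb (0.22 ± 0.10). Cebpb shares 20.7% of its exon bases with a gene on the other strand.

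Trib3, a pseudokinase that ATF4 induces and that binds ATF4 in turn, ran the other way. It measured 12.6, 10.6 and 11.6 CPM in MYAZ16.1e controls and 352, 351 and 342 CPM after deprivation, against 18.5, 16.6 and 18.3 CPM and 283, 270.0 and 288 CPM in Myc310. The Myc310 cultures started higher and ended lower, with a response difference of -0.93 ± 0.08 (adjusted p = 1.5e-10). Trib3 was the only member of the list with a smaller rise in Myc310 that was called.

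Target genes of the ISR outside amino acid metabolism were divided as well. Of 22 tested, 16 were called (72.7%), 11 higher and 5 lower, with a median difference of 0.18, or 0.25 without the 4 genes that had at most 3 counts in every library of a group. Chac1, which degrades glutathione and is a classical ATF4 target (ENSMUSG00000027313, chr2:119351229-119354381, plus strand), was not called. It measured 2.65, 2.76 and 3.14 CPM in MYAZ16.1e controls, 176, 178 and 178 CPM in deprived MYAZ16.1e, 1.60, 1.40 and 1.95 CPM in Myc310 controls and 91.4, 92.9 and 92.3 CPM in deprived Myc310. Its responses of 5.94 and 5.81 differed by -0.13 ± 0.17 (adjusted p = 0.59), although deprived Myc310 cultures held less Chac1 than deprived MYAZ16.1e cultures, without overlap. Cdsn, which encodes the adhesion protein corneodesmosin, rose 2.23 in MYAZ16.1e and 4.86 in Myc310, from 0.936, 0.830 and 0.418 to 21, 20.9 and 23.1 CPM in the latter, a difference of 2.63 ± 0.17 (adjusted p = 4.6e-13). The growth arrest gene Gadd45a went from 5.80, 6.31 and 4.95 to 129.5, 131 and 133 CPM in MYAZ16.1e and from 4.29, 6.47 and 5.80 to 251, 249 and 231 CPM in Myc310, and differed by 0.93 ± 0.14. Hmox1 (haem oxygenase, 0.92 ± 0.06) and the angiogenic factor Vegfa (0.77 ± 0.06) rose more in Myc310 as well. Avil, an actin binding protein gene, was called higher (1.10 ± 0.34), though only at 2.88, 3.21 and 4.20 CPM in deprived Myc310. Without MYAZ16.1e control replicate 3 its difference was 0.67 and was not called (edgeR, adjusted p = 0.14).

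A smaller rise in Myc310 was found for Vldlr, Sesn2 and Ddit4. Vldlr, the receptor of very low density lipoproteins (ENSMUSG00000024924, chr19:27216484-27254231, plus strand), was at 3.44, 2.81 and 2.54 CPM in MYAZ16.1e controls and 61.5, 58.1 and 56.2 CPM after deprivation. In Myc310 it was at 13.5, 14.1 and 14.4 CPM and 93.6, 89.5 and 93.2 CPM. Myc310 had the higher level in both media, and the response was 4.34 in MYAZ16.1e against 2.72 in Myc310, a difference of -1.62 ± 0.13 (adjusted p = 1.4e-10). Sesn2, an inhibitor of mTORC1 signalling that senses leucine, reached 213, 206 and 208 CPM in deprived MYAZ16.1e and 196, 200.3 and 208 CPM in deprived Myc310. These deprived groups overlapped. The controls did not, at 18.8, 19.8 and 19.1 against 38.2, 38.4 and 37.7 CPM, and the difference was -1.04 ± 0.06 (adjusted p = 5.8e-14). Ddit4, likewise an mTORC1 inhibitor, differed by -0.49 ± 0.09. Niban1, an ATF4 target, moved in opposite directions, from 29.9, 27.4 and 27.2 to 58.4, 56.8 and 61 CPM in MYAZ16.1e and from 25.6, 26.1 and 27.2 to 16.7, 15.3 and 15.3 CPM in Myc310, a difference of -1.80 ± 0.10 (adjusted p = 1.3e-14).

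Some secreted ISR products could be compared only as counts, because a control group held at most 3 counts per library. Fgf21 had 0 counts in all 6 control libraries. It had 28, 40 and 36 counts in deprived MYAZ16.1e and 110, 101 and 76 in deprived Myc310. Gdf15 had 54, 65 and 75 counts in deprived MYAZ16.1e and 8, 10 and 8 in deprived Myc310, with 0 or 1 in all controls. Neither gene was called, and no fold is given. For Stc2, a glycoprotein hormone gene, the MYAZ16.1e libraries had 2, 2 and 2 counts in control and 40, 46 and 66 in deprived medium. The Myc310 libraries had 118, 107 and 89 counts in control and 472, 424 and 468 in deprived medium, and the difference was called lower.

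ATF4 binds with C/EBP partners to a composite element, searched here as TGATGNAAN on both strands of the 300 bases around each RefSeq transcription start. That start need not be the outer end of the GENCODE gene, and the windows of Atf3 and Vldlr lie inside the GENCODE spans given for them. RefSeq windows (GRCm38.p6) were found for 9865 of the 13400 genes by symbol or gene number. The letters were present in 2.63% of all windows, in 4 of 15 ISR regulator windows (Atf3, Jdp2, Nupr1 and Trib3) and in 5 of 18 ISR target windows (Avil, Chac1, Fgf21, Herpud1 and Vldlr). They were also found in 5 of 13 tRNA synthetase windows, in 67 of 1647 windows of genes that rose more in Myc310 (4.07%) and in 8 of 251 of those that rose less (3.19%). The holders thus included genes with a larger (Atf3) and a smaller (Trib3, Vldlr) rise in Myc310 and Chac1, whose difference was not called, and the windows of these 4 are shown for that reason. They are Atf3 at chr1:191183284-191183583, minus strand, Chac1 at chr2:119350992-119351291, plus strand, Trib3 at chr2:152344011-152344310, minus strand and Vldlr at chr19:27216770-27217069, plus strand. Each is written 5′ to 3′ on the strand of the gene, and the capitals mark the match, which in all of them lies on the opposite strand.
Atf3: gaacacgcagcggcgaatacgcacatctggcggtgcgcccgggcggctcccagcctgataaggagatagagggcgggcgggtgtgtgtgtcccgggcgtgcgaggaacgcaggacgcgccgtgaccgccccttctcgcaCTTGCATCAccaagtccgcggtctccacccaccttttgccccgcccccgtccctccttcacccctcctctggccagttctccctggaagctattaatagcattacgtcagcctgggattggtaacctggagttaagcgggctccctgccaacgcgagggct
Chac1: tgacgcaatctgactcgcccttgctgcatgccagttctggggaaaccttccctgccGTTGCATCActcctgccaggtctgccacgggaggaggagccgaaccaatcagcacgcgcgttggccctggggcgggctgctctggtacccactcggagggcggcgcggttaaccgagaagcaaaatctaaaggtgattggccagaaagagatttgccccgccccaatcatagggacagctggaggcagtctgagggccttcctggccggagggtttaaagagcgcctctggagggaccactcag
Trib3: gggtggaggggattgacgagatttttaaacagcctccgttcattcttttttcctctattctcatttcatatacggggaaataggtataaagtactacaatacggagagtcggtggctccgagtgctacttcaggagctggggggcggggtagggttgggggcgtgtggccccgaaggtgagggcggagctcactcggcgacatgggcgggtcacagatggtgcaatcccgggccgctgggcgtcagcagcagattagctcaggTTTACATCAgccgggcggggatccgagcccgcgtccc
Vldlr: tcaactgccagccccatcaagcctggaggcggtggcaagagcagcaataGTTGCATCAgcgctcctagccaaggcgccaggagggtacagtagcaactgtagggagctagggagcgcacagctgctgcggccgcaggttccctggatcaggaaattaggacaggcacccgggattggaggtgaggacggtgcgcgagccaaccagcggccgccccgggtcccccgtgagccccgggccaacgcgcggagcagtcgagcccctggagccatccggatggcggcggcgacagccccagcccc
A match is a description of the letters and not a bound site. It begins at base 140 of the window in Atf3, base 57 in Chac1, base 264 in Trib3 and base 50 in Vldlr, counted from the upstream end.

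**Figure D2:**
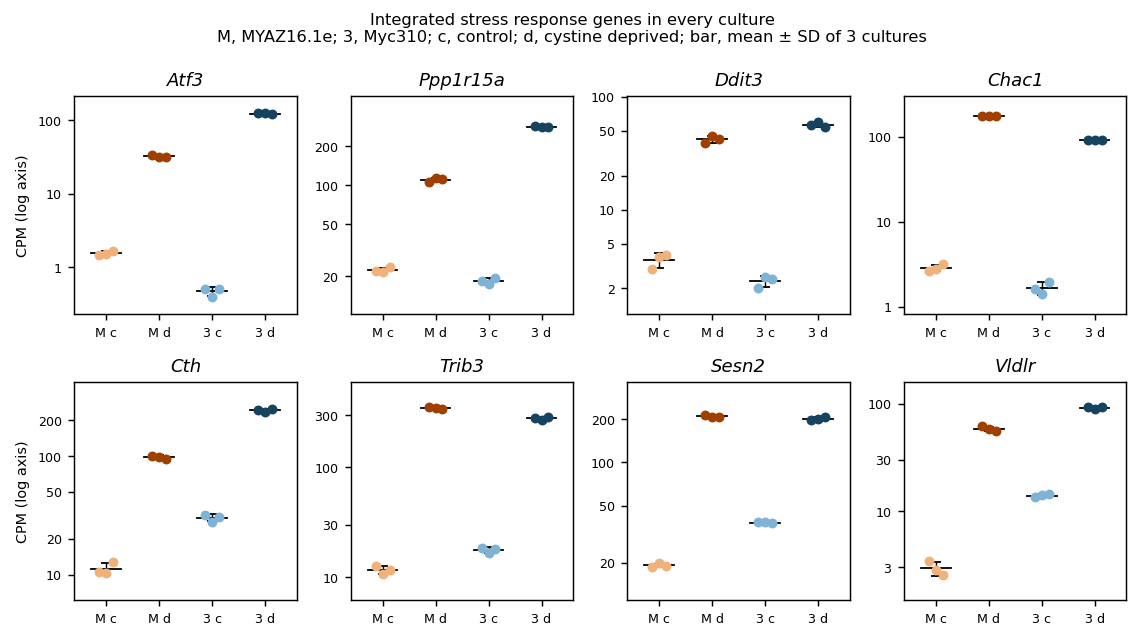
CPM (log axis) of 8 ISR genes in every culture of MYAZ16.1e (M) and Myc310 (3) in control (c) and deprived (d) medium, with a bar at the mean ± SD of 3 cultures. For Atf3 and Ppp1r15a the deprived Myc310 cultures lie highest, for Chac1 and Trib3 the deprived MYAZ16.1e cultures do, and for Sesn2 the deprived groups overlap.

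Most called genes of amino acid synthesis and tRNA charging were higher in Myc310. Of 18 enzymes of amino acid synthesis and one-carbon metabolism, 15 were called (83.3%), 10 higher and 5 lower, with a median of 0.15. Mthfd2, the mitochondrial one-carbon enzyme, rose from 111, 113 and 105 to 381, 391 and 389 CPM in MYAZ16.1e and from 121, 116 and 119 to 620.4, 623 and 619.8 CPM in Myc310, a difference of 0.56 ± 0.04 (adjusted p = 7.8e-12). The deprived groups were far apart and the controls close. Pycr1, which makes proline, differed by 0.62 ± 0.15, Aldh1l2 by 0.44 ± 0.07 and asparagine synthetase Asns by 0.22 ± 0.04. Phgdh, the entry to serine synthesis, rose in both lines (0.58 and 0.56) with a difference of -0.02 ± 0.04 that was not called. The serine enzyme Psat1 rose slightly less in Myc310 (-0.12 ± 0.03, adjusted p = 0.0019). Enzymes that fell more in Myc310 included glutamine synthetase Glul (-0.62 ± 0.06), cytosolic Shmt1 (-0.45 ± 0.06) and Mthfd1 (-0.23 ± 0.04).

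Of the 20 cytosolic aminoacyl-tRNA synthetases, which charge tRNAs, 16 were called (80%), 14 higher and 2 lower, with a median of 0.23. All 14 rose more in Myc310. Alanyl-tRNA synthetase Aars went from 304, 314 and 314 to 787, 804 and 806 CPM in MYAZ16.1e and from 202, 205 and 209 to 806, 827 and 847 CPM in Myc310. Its Myc310 controls were lower and its deprived cultures about level with MYAZ16.1e, a difference of 0.65 ± 0.04 (adjusted p = 1.7e-14). Tars (0.61 ± 0.03), Sars (0.55 ± 0.04) and Wars1 (0.54 ± 0.04) were next. The cysteinyl enzyme Cars rose by 1.72 in MYAZ16.1e and 2.17 in Myc310, a difference of 0.45 ± 0.04 (adjusted p = 2.3e-11). Qars fell further in Myc310 (-0.56 ± 0.05), from 151, 152 and 145 to 81.6, 81.5 and 88.4 CPM there, and the small difference of Kars (-0.08 ± 0.03) was lost in most alternatives of the fit.

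The amino acid transporters had no common direction. Of 16 tested, 8 were called (50.0%, beside 40.3% of all genes), 3 higher and 5 lower. The median was -0.01, or -0.06 without the gene that had at most 3 counts in every library of a group, and -0.043 with upper-quartile scaling, and 2 further members were too low to test. Slc7a11, the transport subunit of xCT, measured 17.5, 17.3 and 16.7 CPM in MYAZ16.1e controls and 184, 179 and 185 CPM in deprived MYAZ16.1e, against 17.2, 15.9 and 15.4 CPM and 128, 123 and 123 CPM in Myc310. Control levels overlapped and the deprived Myc310 cultures were lower, a response difference of -0.48 ± 0.07 (adjusted p = 3.6e-06). Its partner Slc3a2 was not called (-0.06 ± 0.03). The glutamine and neutral amino acid carrier Slc1a5 rose less (-0.44 ± 0.04), and the glycine carrier Slc6a9 likewise (-0.31 ± 0.05, 30.2% of exon bases shared), while Slc38a7 (0.40 ± 0.08) and Slc38a1 (0.25 ± 0.04) rose more. Slc43a2, a carrier of large neutral amino acids, fell in Myc310 and was called lower (-0.45 ± 0.10). Slc7a7 was called higher from 1, 1 and 4 counts in Myc310 controls and 6, 5 and 6 after deprivation, and the call was lost in 6 of 20 alternatives.

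No gene of glutathione metabolism and transsulfuration was called higher in Myc310. Of 23 tested, 7 were called (30.4%, below the 40.3% of all genes), all lower, with a median of -0.12. Transsulfuration makes cysteine from methionine through Cbs and Cth. Cth rose from 10.5, 10.4 and 12.8 to 101, 98.9 and 93.7 CPM in MYAZ16.1e and from 31.8, 28 and 30.8 to 247, 237 and 248 CPM in Myc310. Levels were higher in Myc310 in both media without overlap, while the response difference of -0.09 ± 0.08 was not called (adjusted p = 0.4). Cbs had 3 to 16 counts in all 12 libraries and was not called. The methionine cycle genes Mat2a (-0.33 ± 0.05) and Ahcy (-0.22 ± 0.07) fell further in Myc310, a call that Ahcy lost without Myc310 control replicate 2 (edgeR, adjusted p = 0.053). The catalytic subunit of the enzyme that limits glutathione synthesis, Gclc, was at 86.4, 86.4 and 82.1 and 84.5, 84.3 and 84.5 CPM in MYAZ16.1e and fell from 90.4, 83.9 and 84 to 67.5, 72.2 and 72.2 CPM in Myc310 (-0.28 ± 0.05, adjusted p = 7.5e-05). Glutathione reductase Gsr fell in both lines and further in Myc310 (-0.37 ± 0.06), as did the sulfurtransferase Tst (-0.55 ± 0.12). Mpst was called lower (-0.35 ± 0.14), a call lost in 9 of 20 alternatives.

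The 26 NRF2 targets tested divided by gene. There were 15 called (57.7%, beside 40.3% of all genes), 6 higher and 9 lower, with a median of -0.05. The autophagy receptor Sqstm1 rose from 277, 275 and 281 to 906, 901 and 950.4 CPM in MYAZ16.1e and from 364, 354 and 371 to 2579.7, 2719.9 and 2637 CPM in Myc310, a difference of 1.14 ± 0.04 (adjusted p = 6.6e-20). Hmox1 (77.2, 77.5 and 76.4 CPM in deprived MYAZ16.1e against 217, 216 and 222 CPM in deprived Myc310) and Osgin1 (0.92 ± 0.10) followed. Enzymes that supply NADPH, G6pdx (-0.52 ± 0.05) and Pgd (-0.55 ± 0.04), were lower, since they fell in Myc310 by 0.58 and 0.84. The thioredoxin system genes Txnrd1 (0.02 ± 0.04), Srxn1 (0.04 ± 0.06), Txn1 (0.02 ± 0.03) and Prdx1 (0.07 ± 0.03) were not called.

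Among 20 genes of iron handling and ferroptosis, 12 were called (60.0%, beside 40.3% of all genes), 7 higher and 5 lower. The median was 0.09. Ptgs2, an inducible cyclooxygenase often used as a ferroptosis marker, went from 7.52, 5.75 and 7.19 to 28.5, 26.7 and 29.8 CPM in MYAZ16.1e and from 11.2, 12.1 and 10.3 to 141, 131 and 127 CPM in Myc310, a difference of 1.52 ± 0.11 (adjusted p = 3.5e-12). The ferritin light chain gene Ftl1 fell in MYAZ16.1e (-0.19) and rose in Myc310 (0.11), and 34.6% of its annotated exon bases are shared with other genes. Acsl4, which loads polyunsaturated lipids, rose in Myc310 alone by 0.21 (0.20 ± 0.05). Dhodh, a mitochondrial enzyme that limits lipid peroxidation, fell more in Myc310 (-0.58 ± 0.08), as did the iron reductase Steap3 (-0.70 ± 0.09). The lipid peroxidase Gpx4 was not called (0.08 ± 0.04, adjusted p = 0.17).

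The p53 targets formed the list with the lowest median, -0.33, or -0.32 without Eda2r. Of 17 tested, 14 were called (82.4%), 12 lower in Myc310 and 2 higher. In MYAZ16.1e 11 of the 17 rose and 3 fell (all genes: 26.6% and 27.1%). In Myc310 7 rose and 7 fell (all genes: 32.8% and 33.9%). Zmat3, an RNA binding p53 target (ENSMUSG00000027663, chr3:32334792-32366014, minus strand), measured 33.9, 32 and 30.6 CPM in MYAZ16.1e controls and 62.8, 55.8 and 59.4 CPM after deprivation. It measured 81.8, 92.8 and 90.2 CPM in Myc310 controls and 80.00, 84.8 and 84.5 CPM after deprivation. The MYAZ16.1e groups did not overlap, those of Myc310 did, and both Myc310 groups lay above both MYAZ16.1e groups. The difference was -0.97 ± 0.07 (adjusted p = 1.2e-12). Trp53inp1 had the same layout, with 10.6, 9.48 and 9.43 against 20.5, 20.2 and 26.1 CPM in MYAZ16.1e and 49.4, 55.6 and 52.7 against 54.7, 54.8 and 53.1 CPM in Myc310 (-1.15 ± 0.11, adjusted p = 5.2e-10).

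Ccng1, cyclin G1, rose slightly in MYAZ16.1e, from 71.1, 78.3 and 73 to 77.4, 81.9 and 83.6 CPM, and fell in Myc310, from 312, 314 and 307 to 209, 201 and 206 CPM, a difference of -0.73 ± 0.05 (adjusted p = 4.1e-13). The cell cycle inhibitor Cdkn1a rose in both, from 25.2, 25.7 and 27.3 to 80.5, 87.5 and 86.9 CPM and from 78.8, 79.6 and 78.3 to 184, 183 and 187 CPM, and differed by -0.47 ± 0.05 (adjusted p = 4.5e-09). The p53 ligase Mdm2 (-0.26 ± 0.05), Phlda3 (-0.59 ± 0.05), Sesn1 (-0.63 ± 0.13), Perp (-0.35 ± 0.10), Bax (-0.33 ± 0.05), Tigar (-0.27 ± 0.09) and Aen (-0.21 ± 0.04) were lower too. The call of Perp was lost without MYAZ16.1e deprived replicate 3 (edgeR, adjusted p = 0.052) and that of Tigar without a filter on low counts (adjusted p = 0.068). Eda2r had 0, 0 and 0 counts in MYAZ16.1e controls and 4, 7 and 3 after deprivation. It had 718, 649 and 606 counts in Myc310 controls and 895, 825 and 829 after deprivation, and was called lower, with no fold given. The exceptions were the polo-like kinase gene Plk2, from 36.6, 37.3 and 38 to 64.1, 66.2 and 65.4 CPM in MYAZ16.1e and from 27, 28.3 and 31.3 to 65.5, 71.7 and 76 CPM in Myc310 (0.50 ± 0.08, adjusted p = 4.3e-06), and the DNA polymerase gene Polk (0.26 ± 0.07). Control levels of Zmat3, Trp53inp1, Ccng1, Cdkn1a, Bax, Mdm2, Phlda3 and Eda2r were higher in Myc310, whereas that of Plk2 was lower. Control levels of the other members are not given here. The part of these levels in the response differences was not tested.

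The mitosis list had the highest share of called genes among the 24 lists, 19 of 22 (86.4%). Of these 18 were higher in Myc310 and 1 lower, with a median of 0.35. In MYAZ16.1e 18 of the 22 fell and 1 rose (all genes: 27.1% and 26.6%), with a median response of -0.32. In Myc310 11 rose and 8 fell (all genes: 32.8% and 33.9%), with a median of 0.09. The anaphase spindle protein gene Prc1 (ENSMUSG00000038943, chr7:80294450-80316259, plus strand) was at 238, 246 and 244 CPM in MYAZ16.1e controls, 242, 229.8 and 232 CPM in deprived MYAZ16.1e, 169, 167 and 167 CPM in Myc310 controls and 322, 327 and 344 CPM in deprived Myc310. The MYAZ16.1e groups overlapped, and those of Myc310 went from the lowest to the highest of the 4 groups, a difference of 1.03 ± 0.04 (adjusted p = 2.3e-18). Nusap1, a spindle assembly factor, had 96.4, 93.5 and 102 and 103, 99.2 and 104 CPM in MYAZ16.1e against 42.6, 45.5 and 44.4 and 96.2, 95 and 96.8 CPM in Myc310 (1.06 ± 0.06, adjusted p = 2.5e-14). The mitotic kinase Aurka had 222, 231 and 233 and 229.7, 229 and 218 CPM against 106, 105 and 100.1 and 163, 163 and 169.7 CPM (0.69 ± 0.04), so that Myc310 stayed below MYAZ16.1e in both media.

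Opposite directions were called for 7 of the 22 members of the list, all with a rise in Myc310 (all genes: 1.51% with that pattern). Cyclin B1, Ccnb1, fell from 298, 298 and 296 to 235, 226 and 217 CPM in MYAZ16.1e and rose from 260.3, 265 and 267 to 294, 292 and 316 CPM in Myc310, a difference of 0.58 ± 0.04 (adjusted p = 3.3e-12). Topoisomerase Top2a fell from 800.1, 808 and 799.6 to 769, 732 and 750.2 CPM and rose from 639.8, 647 and 659 to 886, 900.0 and 896 CPM (0.56 ± 0.03). The spindle genes Tpx2 (0.56 ± 0.04), Kif11 (0.41 ± 0.05) and Kif23 (0.27 ± 0.04), the kinetochore gene Cenpf (0.34 ± 0.06) and the ubiquitin enzyme gene Ube2c (0.54 ± 0.04, 22.8% of exon bases under an antisense gene) were the others. The proliferation marker Mki67 fell in MYAZ16.1e (-0.35) and had a response of -0.04 in Myc310 that was not called. The exception was the checkpoint gene Bub1b, which fell in both and more in Myc310 (-0.25 ± 0.04, adjusted p = 1.2e-06). Plk1, Kif20a, which shares 29.3% of its exon bases with a gene on the other strand, and Ccnb2 were not called. In such pooled cultures, fewer cells in a phase of the cycle and less RNA per cell cannot be told apart.

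Promoters of mitotic genes often carry the cell cycle genes homology region, searched as TTTGAA on both strands of the same windows. Of the 9865 genes with a window 14.2% held it. So did 14 of the 18 mitosis genes with a window (77.8%) and 44 of 167 such genes (26.3%) that rose in Myc310 and fell in MYAZ16.1e. The CCAAT box, found in 43.5% of all windows, was in 17 of the 18. The holders of TTTGAA included Plk1 and Ccnb2, which were not called, and Bub1b, which was called lower in Myc310. The windows of Prc1 (chr7:80294201-80294500, plus strand), Aurka (chr2:172370521-172370820, minus strand) and Cenpf (chr1:189688037-189688336, minus strand) are printed as examples of called genes with 1 match each, at bases 246, 283 and 253. Capitals mark TTTGAA.
Prc1: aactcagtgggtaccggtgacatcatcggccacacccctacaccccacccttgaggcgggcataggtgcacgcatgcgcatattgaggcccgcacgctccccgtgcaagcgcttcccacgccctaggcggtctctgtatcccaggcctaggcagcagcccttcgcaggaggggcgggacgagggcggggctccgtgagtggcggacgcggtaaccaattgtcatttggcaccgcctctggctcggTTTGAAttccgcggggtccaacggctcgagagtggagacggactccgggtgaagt
Aurka: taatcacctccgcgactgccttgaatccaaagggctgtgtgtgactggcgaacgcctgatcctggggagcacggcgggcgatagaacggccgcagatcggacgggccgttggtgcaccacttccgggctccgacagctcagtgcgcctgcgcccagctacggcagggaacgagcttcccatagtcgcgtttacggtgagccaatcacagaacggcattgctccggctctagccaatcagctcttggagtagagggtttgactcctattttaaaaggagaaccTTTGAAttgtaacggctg
Cenpf: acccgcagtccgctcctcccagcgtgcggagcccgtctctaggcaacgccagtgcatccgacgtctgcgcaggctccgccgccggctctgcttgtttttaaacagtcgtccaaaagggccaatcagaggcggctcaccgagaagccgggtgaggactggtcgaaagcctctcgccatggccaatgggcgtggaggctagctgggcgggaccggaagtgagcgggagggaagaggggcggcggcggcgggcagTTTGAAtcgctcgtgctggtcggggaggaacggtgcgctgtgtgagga

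Most genes of DNA replication fell in both lines. All 35 genes of that list fell in MYAZ16.1e (all genes: 27.1%), and in Myc310 32 fell and 3 rose (all genes: 33.9% and 32.8%). The difference was called for 17 (48.6%), 6 higher and 11 lower, with a median of -0.09, so the list was close to the background. Cyclin E1, Ccne1, which drives entry into S phase, fell from 67.4, 65.4 and 67.1 to 35.5, 37.9 and 33 CPM in MYAZ16.1e and from 58.7, 60.8 and 60.03 to 17.4, 17.1 and 16.5 CPM in Myc310, a difference of -0.91 ± 0.07 (adjusted p = 3.1e-12). The origin factor Orc1 (-0.33 ± 0.10) and the helicase subunit Mcm6 (-0.32 ± 0.04) fell more in Myc310. Gins3 (0.80 ± 0.13), Rfc4 (0.38 ± 0.08) and Pola1 (0.33 ± 0.05) were the 3 that fell in MYAZ16.1e and rose in Myc310. Ribosome biogenesis, a process that Myc drives, was divided as well, with 22 of 30 called (73.3%), 9 higher and 13 lower, and a median of -0.04. Ppan (-0.53 ± 0.05), Polr1b (-0.50 ± 0.04) and Nolc1 (-0.42 ± 0.03) fell more in Myc310, while the box C/D proteins Nop56 (0.33 ± 0.03) and Nop58 (0.32 ± 0.04) were higher, the former from 415, 419 and 425 to 520.5, 533 and 514 CPM in Myc310.

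Immediate early and AP-1 factors, which are switched on within minutes by MAP kinase and other signals, had the highest median of the 24 lists, 0.59. Of 21 tested 12 were called (57.1%, beside 40.3% of all genes). Of these 11 were higher, all of them rises that were larger in Myc310, and only Myc was lower. Klf6, a zinc finger factor (ENSMUSG00000000078, chr13:5861482-5870394, plus strand), went from 83.6, 82.7 and 83.4 to 152, 147 and 150.1 CPM in MYAZ16.1e and from 88.3, 90.9 and 88.8 to 539, 539 and 541 CPM in Myc310. Control levels lay near each other and the deprived Myc310 cultures far above all others, with a difference of 1.75 ± 0.05 (adjusted p = 1.5e-21). Jun, the core AP-1 subunit, went from 58.7, 52.1 and 56.7 to 91.1, 94.6 and 89.6 CPM and from 46.5, 45.6 and 41.3 to 211, 219 and 205 CPM, a difference of 1.53 ± 0.06 (adjusted p = 1.8e-17). Junb (0.83 ± 0.08), Fosb (1.45 ± 0.20), Maff (0.96 ± 0.09) and Fosl2 (0.70 ± 0.07) were higher. Fosl1 (0.52 ± 0.05) and Jund (0.71 ± 0.08) were also higher, but 57.2% of the exon bases of Fosl1 and 52.6% of those of Jund lie under a gene on the other strand. The AP-1 element, TGANTCA on either strand, was in 6.58% of all windows and in 7.71% of those of genes that rose more in Myc310. Fos, at 6 to 18 counts in the 12 libraries, was not called (0.96 ± 0.55), nor were Egr1 (0.26 ± 0.36) and Klf4 (0.10 ± 0.20).

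Feedback inhibitors of MAP kinases were called in 11 of 14 cases (78.6%), 7 higher and 4 lower, with a median of 0.25. The higher ones were mainly dual specificity phosphatases, which dephosphorylate MAP kinases. Dusp16 went from 41.9, 43.4 and 42.6 to 65.7, 63.3 and 67.6 CPM in MYAZ16.1e and from 24, 25.2 and 22.8 to 94, 98.1 and 92.3 CPM in Myc310 (1.36 ± 0.06, adjusted p = 2.8e-17), with the Myc310 group lowest in control and highest in deprived medium. Dusp8 (1.29 ± 0.13), Dusp10 (1.47 ± 0.19) and Dusp1 (0.93 ± 0.06) rose more as well. The receptor signalling inhibitors Spry1 (-1.22 ± 0.38, 24.4% of exon bases shared with an antisense gene), Spry4 (-0.39 ± 0.14, a call lost in 5 of 20 alternatives, among them those without MYAZ16.1e control replicate 1 or 3 and without deprived replicate 1), Spred1 (-0.20 ± 0.04) and Spred2 (-0.30 ± 0.05) were lower, whereas Spry2 was higher (0.33 ± 0.08).

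YAP and TGF-beta targets, genes that respond to cell shape, matrix and TGF-beta ligands, were called in 12 of 20 cases (60.0%, beside 40.3% of all genes). Of these 11 were higher and 1 lower, and the list median was 0.33, or 0.39 without Edn1. Ankrd1, a YAP target (ENSMUSG00000024803, chr19:36111961-36120099, minus strand), measured 71.9, 71.6 and 68.2 CPM in MYAZ16.1e controls and 125, 130.3 and 128 CPM after deprivation. In Myc310 it measured 71.7, 73.3 and 75.1 CPM and 427, 447 and 430.4 CPM, from overlapping controls to non-overlapping deprived groups, a difference of 1.71 ± 0.07 (adjusted p = 2.4e-17). The matricellular genes Ccn1, from 96.6, 98 and 109 to 314, 349.6 and 355 CPM in Myc310 (1.38 ± 0.09), and Ccn2 (1.42 ± 0.12, 23.2% of exon bases shared with an antisense gene) rose more there. Tissue factor F3 (0.89 ± 0.16), the inhibitory Smad7 (0.79 ± 0.10), Amotl2 (0.59 ± 0.06) and Id3 (0.51 ± 0.10) were higher and Id1 was lower (-0.42 ± 0.09). Axl, Lats2, Nuak2, Id2 and Smad6 had differences between -0.01 and 0.03 and were not called. Of these, Lats2 shares 42.4% of its exon bases with a gene on the same strand.

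TEAD factors, through which YAP acts, bind the letters CATTCC. These were found on either strand in 14.4% of all windows and in 9 of the 14 windows of the YAP and TGF-beta list (64.3%), namely those of Ajuba, Amotl2, Ankrd1, Axl, Ccn1, Crim1, Edn1, Id3 and Lats2. The holders thus included genes that were called higher and genes, such as Axl and Lats2, that were not called. The windows of Ankrd1 (chr19:36119795-36120094, minus strand), Ccn1 (chr3:145649936-145650235, minus strand) and Amotl2 (chr9:102717554-102717853, plus strand) are shown as those of members that rose more in Myc310. Capitals mark CATTCC or, in Ankrd1, its reverse complement, which occurs at bases 41 and 128 of the window.
Ankrd1: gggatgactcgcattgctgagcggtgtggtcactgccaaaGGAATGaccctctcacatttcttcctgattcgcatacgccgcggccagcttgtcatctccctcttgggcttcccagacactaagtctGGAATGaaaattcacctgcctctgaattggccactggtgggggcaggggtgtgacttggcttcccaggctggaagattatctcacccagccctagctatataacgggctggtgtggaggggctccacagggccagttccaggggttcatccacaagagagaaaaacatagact
Ccn1: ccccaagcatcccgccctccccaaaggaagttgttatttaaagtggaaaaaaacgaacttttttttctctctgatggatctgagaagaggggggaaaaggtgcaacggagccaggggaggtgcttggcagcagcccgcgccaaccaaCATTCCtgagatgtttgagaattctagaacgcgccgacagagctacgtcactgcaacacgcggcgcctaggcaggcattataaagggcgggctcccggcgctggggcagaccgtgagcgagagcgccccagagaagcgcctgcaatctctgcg
Amotl2: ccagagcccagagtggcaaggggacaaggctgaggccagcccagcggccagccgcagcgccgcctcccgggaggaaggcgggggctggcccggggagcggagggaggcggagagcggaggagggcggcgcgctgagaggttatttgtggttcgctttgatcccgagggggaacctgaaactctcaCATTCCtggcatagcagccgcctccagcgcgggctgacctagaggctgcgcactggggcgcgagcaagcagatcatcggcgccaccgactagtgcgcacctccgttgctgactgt
The Ccn1 match begins at base 148 and that of Amotl2 at base 186.

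**Figure D3:**
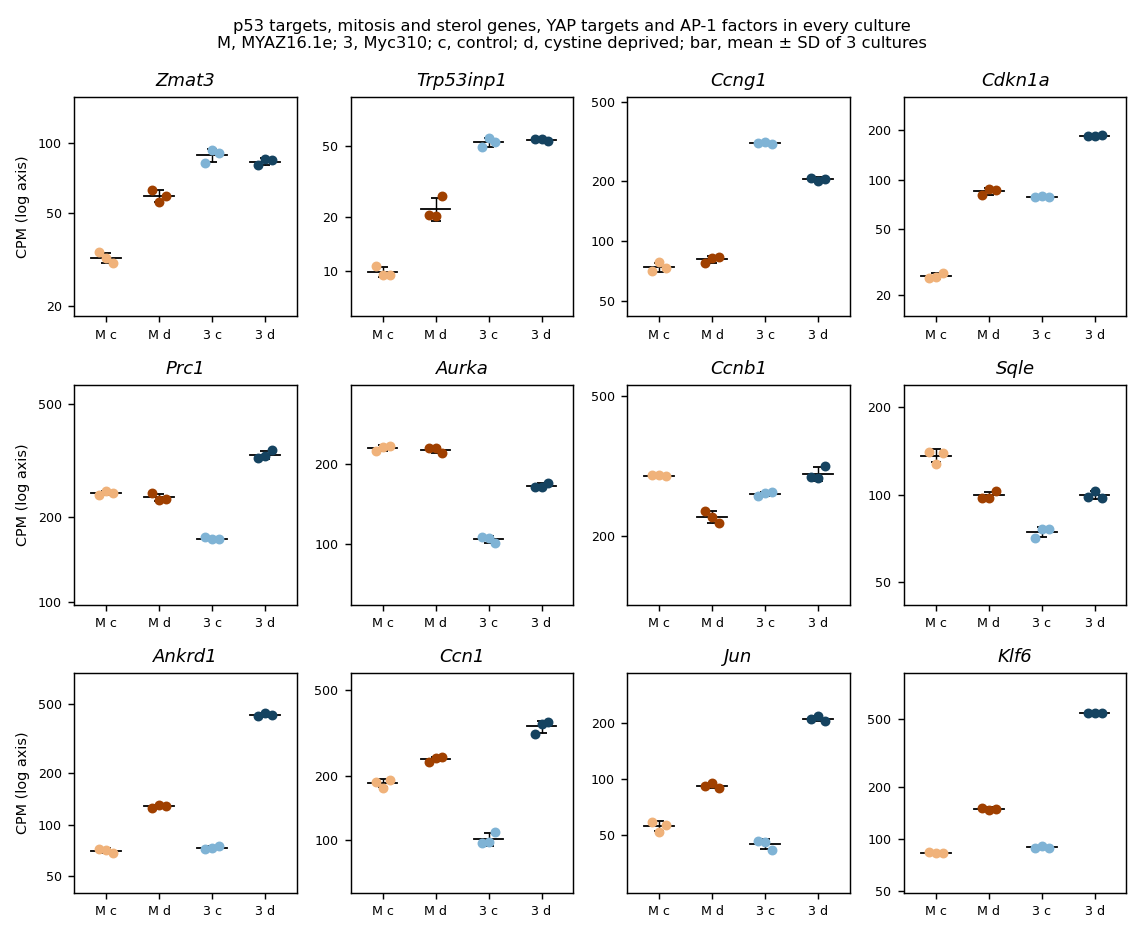
CPM (log axis) of 12 genes in every culture of MYAZ16.1e (M) and Myc310 (3) in control (c) and deprived (d) medium, with a bar at the mean ± SD of 3 cultures. Zmat3 and Trp53inp1 rise from left to right in MYAZ16.1e alone, Ccnb1 and Sqle fall in MYAZ16.1e and rise in Myc310, and in the bottom row the deprived Myc310 cultures lie above all others.

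Sterol synthesis genes, which SREBP2 controls, fell in most cases, 21 of 24 in MYAZ16.1e and 18 in Myc310 (all genes: 27.1% and 33.9%). The difference was called for 12 (50.0%, beside 40.3% of all genes), 9 higher and 3 lower, with a median of 0.13. Sqle, squalene epoxidase (ENSMUSG00000022351, chr15:59315077-59331192, plus strand), fell from 141, 128 and 139.7 to 97.5, 97.6 and 103 CPM in MYAZ16.1e and rose from 70.9, 76.1 and 76.1 to 98.3, 103 and 97.2 CPM in Myc310, a difference of 0.88 ± 0.06 (adjusted p = 1.1e-12). Lanosterol demethylase Cyp51 did the same (0.76 ± 0.09), and Msmo1, a later oxidase of the pathway, went from 69.6, 61.1 and 68.6 to 74.9, 74.9 and 71.7 CPM in MYAZ16.1e and from 29.2, 29.3 and 29.3 to 64.5, 59.9 and 64.8 CPM in Myc310 (0.96 ± 0.10, adjusted p = 1.9e-09). Hsd17b7 (0.86 ± 0.10) and Idi1 (0.64 ± 0.11) fell less in Myc310, and Stard4 fell more (-0.67 ± 0.08). Insig1 and Mvd, which fell in both lines, were not called. CCAAT was in all 16 sterol gene windows found, beside 43.5% of all windows. The sterol regulatory element, searched as TCACNCCAC, was in 1 of the 16 (6.25%), beside 1.31% of all windows, and a longer form of the element was in 0. In fatty acid synthesis 9 of 13 genes were called (69.2%), 4 higher and 5 lower, with a median of -0.04, or -0.02 without the gene at the floor of 3 counts. Fatty acid synthase Fasn fell from 558, 622 and 575 to 366, 369 and 360.2 CPM in MYAZ16.1e and from 1069, 1032 and 1043 to 479, 495 and 500.5 CPM in Myc310 (-0.41 ± 0.05, adjusted p = 1.1e-07). Scd2 fell more (-0.43 ± 0.07) and the desaturase gene Fads2 fell less (0.38 ± 0.10).

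The ER chaperones and XBP1 targets, which mark the unfolded protein response, were called in 13 of 20 cases (65.0%, beside 40.3% of all genes). Of these 9 were higher and 4 lower, and the list median was 0.05, or 0.020 under upper-quartile scaling. The chaperone BiP, Hspa5, rose from 984, 976 and 977 to 1342, 1328 and 1280.3 CPM in MYAZ16.1e and from 803, 771 and 779 to 1719, 1739 and 1731 CPM in Myc310, a difference of 0.71 ± 0.03 (adjusted p = 2.0e-17). The degradation genes Sel1l (0.42 ± 0.04) and Derl1 (0.34 ± 0.05) rose more too. Sdf2l1 fell more (-0.60 ± 0.10), and Hsp90b1 (0.06 ± 0.03), Pdia3 (-0.01 ± 0.03) and Hyou1 (0.01 ± 0.04) were not called. Cytosolic heat shock genes were lower in 10 and higher in 5 of 21 (71.4% called), with a median of -0.05. Hspa1a fell from 26.4, 23.2 and 22.3 to 9.74, 10.5 and 9.29 CPM in MYAZ16.1e and from 16, 17.3 and 16.6 to 4.08, 3.53 and 3.03 CPM in Myc310 (-0.95 ± 0.15), and its near-identical copy Hspa1b, with which it may share reads, followed (-0.63 ± 0.11). Dnajb4 stood apart, going from 34.8, 31.9 and 35.8 to 39.8, 39.7 and 43.5 CPM in MYAZ16.1e and from 37.3, 37.3 and 39.3 to 100.0, 95.2 and 91.4 CPM in Myc310 (1.07 ± 0.07, adjusted p = 4.0e-13).

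Lysosomal and autophagy genes were called in 12 of 26 cases (46.2%, close to the 40.3% of all genes), 8 higher and 4 lower, with a median of 0.04, or 0.06 without the gene at the floor of 3 counts and 0.0071 under upper-quartile scaling. Beside Sqstm1, Fnip1 (0.52 ± 0.08), Mitf (0.33 ± 0.07) and Tfe3 (0.27 ± 0.05) were higher, while Tfeb (-1.07 ± 0.28), the kinase Ulk1 (-0.28 ± 0.09) and Uvrag (-0.58 ± 0.06) were lower. Ulk1 lost its call without Myc310 control replicate 3 and without Myc310 deprived replicate 2 (edgeR, highest adjusted p = 0.11). Glycolysis and hypoxia genes were called in 21 of 26 cases (80.8%), 7 higher and 14 lower, with a median of -0.11. Among the higher members were Ndrg1, from 18.7, 20.01 and 21.2 to 186, 194 and 196 CPM in Myc310 (1.09 ± 0.11), Eno2 (0.98 ± 0.16) and Pfkfb4 (0.70 ± 0.12). Among the lower members were Pgam1 (-0.47 ± 0.03), Pfkm (-0.54 ± 0.06), Pfkl (-0.38 ± 0.04), Ldha (-0.31 ± 0.03) and Gapdh (-0.24 ± 0.03), all enzymes of glycolysis, whereas Tpi1 and Pgk1 of the same pathway were not called. Hexokinase Hk2 rose less in Myc310 (-0.45 ± 0.04), and Pfkp rose in MYAZ16.1e and fell in Myc310 (-0.40 ± 0.04).

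Of the metallothioneins and zinc transporters 3 of 5 were called (60.0%, beside 40.3% of all genes), 2 higher and 1 lower. The median was 0.11. Mt1, which binds zinc through its cysteines, went from 138, 142 and 141 to 186, 178 and 192 CPM in MYAZ16.1e and from 184, 192 and 184 to 452, 454 and 467 CPM in Myc310 (0.89 ± 0.04, adjusted p = 4.3e-17), and Mt2 differed by 0.74 ± 0.04, with 73.5% of its exon bases under an antisense gene. The zinc importer Slc39a10 fell from 85.3, 83.7 and 84.9 to 40.2, 40.9 and 41.8 CPM in MYAZ16.1e and from 69.9, 70.7 and 65.1 to 11.4, 12.7 and 10.8 CPM in Myc310, a difference of -1.51 ± 0.07 (adjusted p = 7.6e-16) and the leading value among genes that fell more and averaged 3 or more on the log2 CPM scale. Among 14 NF-kB targets and cytokines 6 were called (42.9%, close to the 40.3% of all genes), 5 higher and 1 lower, with a median of 0.04, or -0.02 without the gene that had at most 3 counts in every library of a group and 0.0083 under upper-quartile scaling. The ubiquitin editor Tnfaip3 had 12.9, 15 and 12.6 and 14.2, 15.4 and 14.8 CPM in MYAZ16.1e against 3.67, 3.45 and 3.90 and 8.64, 7.65 and 9.40 CPM in Myc310 (1.09 ± 0.15). Relb (0.85 ± 0.14), the chemokine Cxcl1 (0.91 ± 0.16) and Csf1 (0.37 ± 0.05) rose more and the chemokine Ccl2 rose less (-0.35 ± 0.10). Interferon-stimulated genes were low, with 8 of 24 not tested, and 3 of 16 were called (18.8%, below the 40.3% of all genes). The median was -0.15, or -0.30 without the 3 members that had at most 3 counts in every library of a group. Called were Irf9 (-0.58 ± 0.18) and Bst2 (-0.23 ± 0.08, lost in 6 of 20 alternatives) as lower and, as higher, Cxcl10, which had 16, 8 and 31 counts in MYAZ16.1e controls, 8, 12 and 8 after deprivation, 0 in each Myc310 control and 4, 1 and 3 in deprived Myc310.

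**Figure D4:**
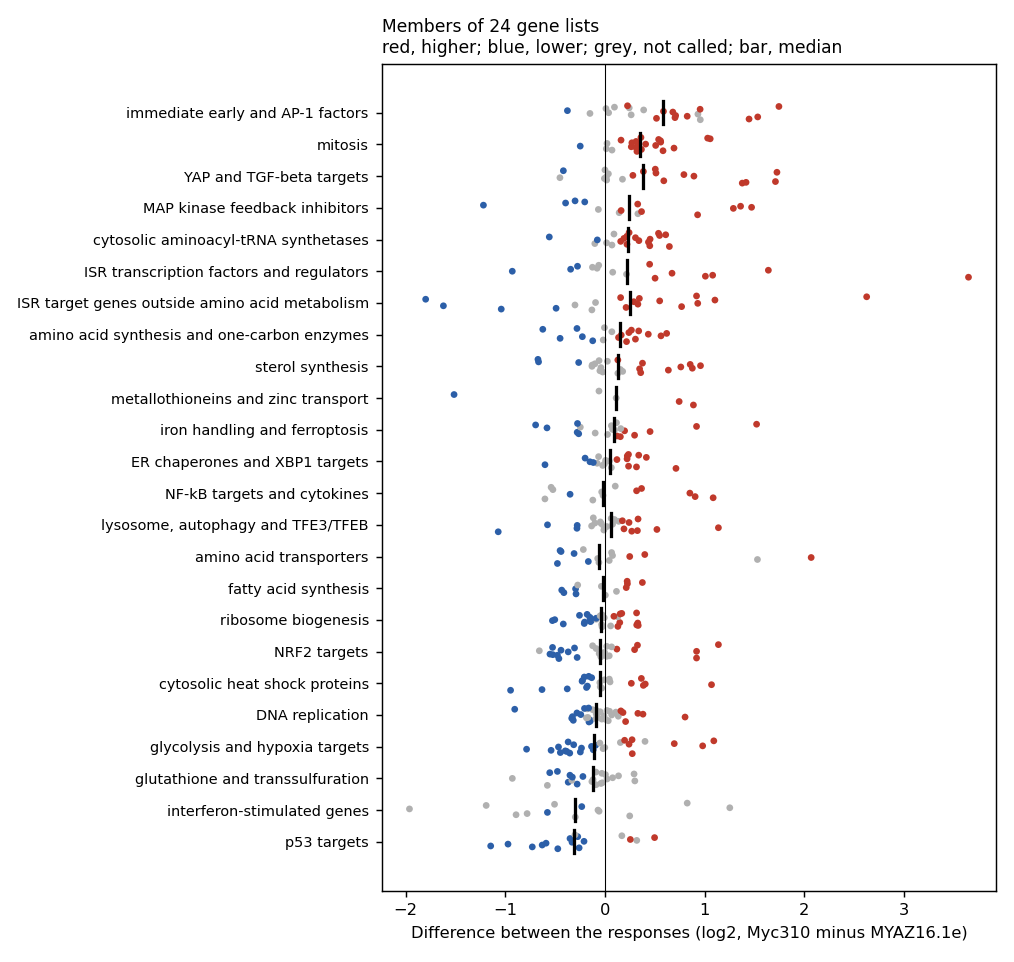
Response differences (log2, Myc310 minus MYAZ16.1e) of the tested members of the 24 lists, called genes in red (higher) or blue (lower) and others in grey, without the 14 list entries that had at most 3 counts in every library of a group. The bar is the median of the genes drawn. Immediate early factors lie furthest right and p53 targets furthest left.

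The 5 genes with the largest differences in each class, among those that averaged 3 or more on the log2 CPM scale, were taken regardless of the lists, and several are list members. Of the 5 with the largest excess rise in Myc310, Cdsn and Klf6 are described above. The EGFR ligand amphiregulin, Areg, went from 1.18, 0.828 and 1.00 to 2.87, 3.45 and 3.23 CPM in MYAZ16.1e and from 10.1, 12.2 and 12.6 to 168, 173 and 159 CPM in Myc310, a difference of 2.18 ± 0.22 (adjusted p = 3.0e-09). The matrix gene Fbln2 was at 133, 142 and 134 and 165, 165 and 164 CPM in MYAZ16.1e, and rose from 0.195, 0.175 and 0.325 to 2.79, 1.60 and 2.51 CPM in Myc310 (3.04 ± 0.29), where it stayed far below MYAZ16.1e. Sox9, a progenitor transcription factor, likewise rose from 1.83, 2.01 and 1.67 to 8.64, 8.52 and 11.5 CPM in Myc310 (1.86 ± 0.16) below the 26, 27 and 28.8 CPM of MYAZ16.1e controls. The level cut was applied to the mean of all 12 libraries, which Fbln2 reached only through MYAZ16.1e and Areg only through Myc310. Their responses in the other line rest on low levels, so the rank of these genes was set in part by that cut. Among smaller rises, Vldlr, Trp53inp1, Sesn2 and Zmat3 are described above. The other was the small GTPase gene Rab43 (-1.06 ± 0.23, adjusted p = 3.6e-04), 75.4% of whose exon bases are shared with an overlapping gene on the same strand.

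Of the falls that were larger in Myc310, Slc39a10 is given above. Thbs1 (-1.41 ± 0.26), Fbxo21 (-1.37 ± 0.17), Arc (-1.35 ± 0.19) and Apln (-1.35 ± 0.16) came next. The vascular peptide gene Apln fell from 14.6, 15.1 and 13.4 to 4.55, 4.69 and 4.69 CPM in MYAZ16.1e and from 23.4, 22.5 and 22.2 to 2.44, 3.39 and 2.86 CPM in Myc310 (adjusted p = 5.3e-08). Thbs1 was at 1.76, 1.49 and 1.72 CPM in Myc310 controls beside 74.7, 76.3 and 74.8 CPM in those of MYAZ16.1e, and its response was -0.61 in LM1 and 0.32 in LM1-LM, lines derived from Myc310. Falls that were smaller in Myc310 were led by Hsd17b7 and Idi1 of the sterol pathway and by 3 loci of low level, Cbx3-ps6, Gm28439 and Gm15501. Cbx3-ps6 is a pseudogene with 96.4% of its exon bases under an antisense gene, and its call was lost in 9 of 20 alternatives. The call of Gm28439 was lost in 7.

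Genes that moved in opposite directions had median responses of -0.15 in MYAZ16.1e and 0.17 in Myc310 where Myc310 rose, and of 0.25 and -0.27 where it fell. Where Myc310 rose, the leaders were Gm13415 (1.05 ± 0.12), Ska1 (0.94 ± 0.09), Gm4739 (0.90 ± 0.14), Sqle (0.88 ± 0.06) and Klra4 (0.87 ± 0.09). Ska1, which couples kinetochores to microtubules, fell from 33.9, 34.3 and 37.9 to 30.1, 31.3 and 32.7 CPM in MYAZ16.1e and rose from 19.1, 21.5 and 19.8 to 33, 34.4 and 35 CPM in Myc310 (adjusted p = 3.1e-10). Where Myc310 fell, they were Afap1l1 (-2.33 ± 0.28), Niban1 (-1.80 ± 0.10), Ap5b1 (-1.26 ± 0.15), Zbtb7c (-1.22 ± 0.13) and Fbxl20 (-1.07 ± 0.10). Afap1l1, an actin filament associated gene, rose from 0.442, 0.460 and 0.669 to 1.78, 2.44 and 2.56 CPM in MYAZ16.1e, where it was hardly present, and fell from 172, 174 and 171 to 142, 142 and 144 CPM in Myc310 (adjusted p = 5.2e-08). Fbxl20, a ubiquitin ligase subunit, rose from 14.8, 16.4 and 14.7 to 21.3, 25.7 and 22.5 CPM and fell from 26.5, 28.7 and 27.3 to 19.4, 20.2 and 20.2 CPM (adjusted p = 2.6e-10). In both of these genes the deprived and control groups of a line did not overlap.

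LM1, grown from a lung metastasis of Myc310, and LM1-LM, grown from a metastasis of LM1, were deprived in the same way, with 3 cultures per group. Their libraries were part of the same model, where they shared its filter, scaling and dispersion, but the response difference was not taken between them. They are of the same descent as Myc310. A called Myc310 response is part of the definition of the genes that rose more, fell more or moved in opposite directions. The same direction in LM1 and LM1-LM is therefore in large part given by that choice. Shares of all genes tested do not account for it, and genes that responded in Myc310 without a called difference are not set beside them. A rise or fall in LM1 or LM1-LM was not tested against that of MYAZ16.1e. In LM1 71.1% and in LM1-LM 72.4% of all genes tested were called. Of the 2093 genes that rose more in Myc310, 2029 rose in LM1 and 2034 in LM1-LM, beside 35.8% and 36.5% of all genes tested. Of the 2254 that fell more, 2152 and 2136 fell, beside 35.3% and 35.9%. The median responses of these classes were 0.75 and 0.78 for the rises and -0.73 and -0.77 for the falls. Of the 203 genes that rose in Myc310 and fell in MYAZ16.1e, 187 rose in LM1 and 187 in LM1-LM. Of the 120 with the reverse pattern 104 and 99 fell. The 336 genes with a smaller rise in Myc310 were mixed, with 121 rising and 94 falling in LM1 and 123 and 102 in LM1-LM. So were the 343 with a smaller fall, of which 121 rose and 90 fell in LM1 and 144 and 97 in LM1-LM. In an alternative added after the data were seen, the classes came from the 12 libraries of MYAZ16.1e and Myc310 alone and the responses of LM1 and LM1-LM from their own 12 libraries. In that fit 2082 genes rose more in Myc310, and of the 2073 of them that were also tested in the LM fit, 2010 rose in LM1 and 2000 in LM1-LM. It had 2191 genes that fell more, of which 2164 were tested there, and 2082 and 2074 of these fell.

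Single genes also departed from their class in these lines. Vldlr, with a smaller rise in Myc310 (2.72) than in MYAZ16.1e (4.34), had responses of 6.07 in LM1 and 7.30 in LM1-LM. Slc7a11 (3.97 and 3.93) and Chac1 (6.41 and 6.31) also had larger responses there than in either Myc310 or MYAZ16.1e. Sesn2 remained near Myc310, at 2.29 and 2.26, and Zmat3 was at -0.23 and -0.21. Atf3 (8.97 and 9.62), Ankrd1 (3.51 and 3.58), Prc1 (1.51 and 1.65) and Sqle (0.64 and 0.73) had larger rises than in Myc310, as values without a test between the lines. The median response of the mitosis list was 0.27 in LM1 and 0.38 in LM1-LM.

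**Figure D5:**
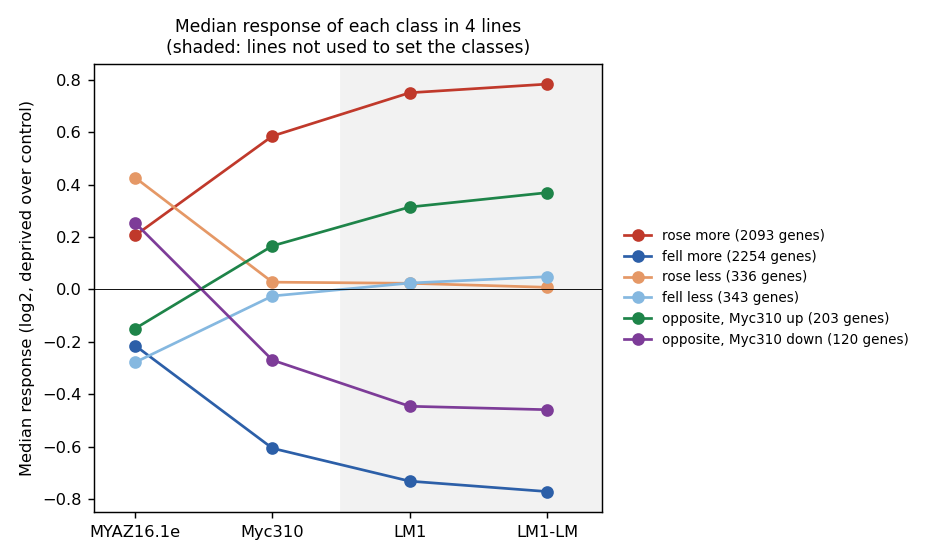
Median response (log2, deprived over control) of each class of genes in the 4 lines, with the number of genes in the legend and the lines not used to set the classes shaded. The medians of genes that rose more lie at 0.21, 0.59, 0.75 and 0.78, and those of genes that rose less fall from 0.43 in MYAZ16.1e to near 0 in the other 3 lines.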

How the data were processed

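RNA was sequenced from cell cultures as paired-end libraries of a directional poly(A) kit. Alignment by the authors used STAR, and expected counts per gene were estimated with RSEM in an nf-core pipeline (GRCm38, per the labels) and deposited as whole numbers. Their counting setting for strand is not given in the sources used here. RSEM divides reads that match several genes, so near-identical copies share uncertainty.

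Deposited counts of 24 libraries (MYAZ16.1e, Myc310, LM1 and LM1-LM in control and deprived medium, 3 each) entered 1 model of 8 groups in edgeR 4.0.16 (R 4.3.3; quasi-likelihood test, TMM scaling, low counts removed by filterByExpr, which left 13400 of 28454 genes, Benjamini-Hochberg adjustment, threshold 0.05, two-sided). DESeq2 1.42.0 was an alternative. Libraries held 19517859 to 29019988 counts. The test was checked on simulated counts for this difference over 13274 genes. It recovered 94 of 100 genes changed 1.5-fold and 99 of 100 changed 2-fold, and called 8 unchanged genes. The changed genes were drawn from those averaging 3 or more in log2 CPM, and all other genes had no difference, whereas 40.3% were called in the data. Recovery at lower levels, and false calls with that many differences, were not checked. No 2 libraries of a group agreed within sampling noise (chi-square per degree of freedom 2.55 to 6.76).

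The gene lists, the members named and the 13 promoter motifs were chosen with earlier results of these data known. Named are the 5 genes per class, and 5 for each opposite direction, with the largest difference among those averaging 3 or more in log2 CPM, the 4 called members of each list with the largest difference, members named as not passing, and Cth, Chac1, Slc7a11, Atf4, Ddit3, Cbs and Myc. Further list members were named after their values were seen. Some list members are counted with their list but not reported here by name. No fold is given against a group with at most 3 counts in each library. Alternatives covered scaling, filtering, the samples modelled, equal depth, DESeq2, the replicate block and each culture left out.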

Additional observations from a re-analysis of the deposited data

Results flagged for a closer look

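The test of the response difference itself called 5396 genes whose deprivation response differed between Myc310 and MYAZ16.1e. Among them both responses were called in opposite directions for 203 genes that rose in Myc310 and 120 that fell there. The leading differences with Myc310 rising were those of Gm13415 (1.05), Ska1 (0.94), Gm4739 (0.90), Sqle (0.88) and Klra4 (0.87). Those with Myc310 falling were Afap1l1 (-2.33), Niban1 (-1.80), Ap5b1 (-1.26), Zbtb7c (-1.22) and Fbxl20 (-1.07). These are log2 values, and each was tested as an interaction in edgeR's quasi-likelihood model. Afap1l1 was at most 2.56 CPM in MYAZ16.1e and at least 142 CPM in Myc310. No test for outlying cultures was made, as each group held 3, but each culture was left out in turn, as given below.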

How the results depend on the processing

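Under 20 alternatives every count of called genes in the response difference, its classes and the responses of both lines stayed within 1.5 times its reported value. The number of called differences was 5394 with RLE scaling, 5437 with upper-quartile scaling, 5159 without a filter, 5130 in DESeq2, 5169 with libraries thinned to equal depth, 5269 from the 12 libraries of both lines alone and 4994 to 5193 with a culture left out. Upper-quartile scaling moved the split to 2282 higher and 3155 lower, from 2656 and 2740, whereas RLE scaling (2749 and 2645), DESeq2 (2621 and 2509) and no filter (2598 and 2561) gave more higher than lower calls. Leaving out a culture gave 2484 to 2611 higher and 2473 to 2582 lower. Opposite directions numbered 281 to 337. The median difference over all genes, -0.018, moved to -0.0107 with RLE scaling, -0.0521 with upper-quartile scaling, 0 without a filter, -0.0137 with at least 10 counts in each library and -0.0107 in DESeq2, and lay between -0.0190 and -0.0094 with a culture left out, and the cause of these shifts was not tested. The medians of the 24 lists kept their sign under both scalings. They lay 0.0072 to 0.0076 higher with RLE and 0.034 lower with upper-quartile scaling, which moved 1 and 9 of them by over 1.5 times. The 9 were the lists of amino acid transporters, NRF2 targets, iron handling, fatty acid synthesis, ribosome biogenesis, ER chaperones, heat shock proteins, lysosome and autophagy, and NF-kB targets, and the 1 was amino acid transporters. The ratio of the median absolute responses, Myc310 over MYAZ16.1e, a measure chosen after seeing the data, was 1.61 and ranged from 1.52 to 1.65. Of 310 called list members and class genes, 275 were called under every alternative in which they were tested, and no named gene reversed. The calls lost most often were small differences, such as those of Kars (17 alternatives), Manf (14), Blvrb (13), Dnajb9 (13), Prim1 (12) and E2f1 (10). Avil lost its call without MYAZ16.1e control replicate 3, the deepest library, whose library number was also apart from its group. With the replicate block 5372 differences were called. Deviations from the group mean correlated over 0.1 in 6 of 18 pairs of same-numbered libraries (-0.39 to 0.42). Libraries numbered 1 correlated at 0.30 to 0.42 among MYAZ16.1e control, MYAZ16.1e deprived and Myc310 deprived. With Myc310 control they correlated at -0.31 to -0.23. What same-numbered cultures shared was not tested. Depth limits genes near the floor of 3 counts, such as Cbs, Fgf21 and Gdf15.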

Other observations

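Some genes were present in only 1 of the lines, so that their response could be measured there alone. Cdkn2a, which encodes the INK4A and ARF tumour suppressors, was at 139 ± 6.79 CPM in control and 126 ± 2.70 CPM in deprived MYAZ16.1e cultures (SD, n = 3) and had 0 counts in all 6 Myc310 libraries. Trp53, the gene of p53 itself, was present in both lines, at 314 ± 10.0 and 247 ± 4.61 CPM in MYAZ16.1e and 245 ± 3.54 and 193 ± 3.80 CPM in Myc310, and its responses of -0.35 and -0.34 had a difference of 0.00 ± 0.04 (SE) that was not called (edgeR, adjusted p = 0.98). ARF acts upstream of MDM2 and p53, and the part of the absent Cdkn2a reads in the response differences of p53 targets was not tested.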
